A study of Mus musculus with 64 samples.

Results

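The 9 genes described here serve the neuromuscular junction or answer to the loss of nerve contact in skeletal muscle: Chrna1, Chrnd, Chrne, Chrng, Musk, Myog, Runx1, Gadd45a and Ncam1. They were chosen by symbol and matched by gene ID to the expression table, which held all 9 among 36332 gene IDs, of which 24041 had a read in any muscle library. The study measured messenger RNA in skeletal muscle, liver and omental fat of mice in which Myc was inactivated throughout the body (KO) and of wild-type controls (WT), aged 5 or 20 months. KO mice came from a cross of the B6.129 line with the allele Gt(ROSA)26Sortm1(cre/ERT2)Tyj and the line B6.129-B6.129S6 with the allele Myctm2Fwa/Mmjax: Cre, made from the first allele in all tissues and set free by tamoxifen, removes the Myc gene flanked by recombination sites of the second. WT mice were C57/B6, so genotype and strain background cannot be told apart. Mice of both genotypes received 5 injections of 75 mg/kg tamoxifen once weaned and at least 15 g in weight, so the WT mice had been given the drug too. The skeletal muscle groups hold 6 WT and 4 KO libraries of the younger age, and 5 WT and 5 KO libraries of the older. The codes of the older libraries hold 18 where the other labels give 20 months, and 20 months is used here. The name of the muscle sampled was not given in the sources used here.

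At the neuromuscular junction, acetylcholine from the motor nerve opens a pentameric receptor in the muscle membrane built of alpha, beta and delta subunits together with epsilon in adult muscle or gamma in fetal muscle. Agrin from the nerve acts through Lrp4 on the receptor kinase MuSK, and with Dok7 and rapsyn this gathers the receptors under the nerve ending. In muscle that has lost its nerve, the whole fibre makes receptor subunits, MuSK and NCAM again under the transcription factor myogenin, while Runx1 and Gadd45a also rise, which is the textbook pattern against which these genes are usually read.

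The muscle libraries held 15.4 to 22.4 M reads (M, mega) on genes. Of these values 11 fast and general fibre markers (among them Acta1, Ckm and Myh4) took 13.3% to 17.9% in each library, which fits the tissue label. Values are given as CPM, the name in the table, a signal proportional to reads within a library. Differences are log2 fold changes of CPM + 1 from limma, called at a Benjamini-Hochberg adjusted p under 0.05 over 13237 muscle genes, and the pseudocount of 1 makes changes of weakly read genes look smaller than they are. Of the 9 members 8 passed the filter of more than 1 CPM in at least 4 libraries, and Chrng did not. Several libraries stood apart. W18S42 (WT, 20 months) held 2518 CPM of 4 hepatocyte markers where the other muscle libraries held at most 36.9 CPM, and slow-fibre markers summed to 3679 to 4997 CPM in K5S4285, W5S5004 and W5S5007 against 175 to 1333 CPM in the others. Xist without Y-chromosome transcripts was found in 2 WT and 2 KO libraries at 5 months and in none at 20 months. Myc itself averaged 29.1 ± 27.2 CPM (SD, n = 6) in WT and 10.2 ± 5.21 CPM (n = 4) in KO libraries at 5 months, with overlapping groups and a log2 fold change of -1.13 (limma adjusted p = 0.9999). At 20 months Myc averaged 7.91 ± 3.21 CPM in WT and 5.98 ± 3.83 CPM in KO libraries (n = 5 each).

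The clearest difference among the 9 genes was with age. Ncam1 was lower at 20 than at 5 months in both genotypes, by 1.09 on the log2 scale in WT and by 0.81 in KO muscle, and no other member passed the test in any comparison over all libraries by limma. The call of Ncam1 held in 29 of 29 alternatives in WT but in 20 of 29 in KO muscle. In KO muscle it was lost, among others, with Xist as a covariate and over libraries with Y-chromosome transcripts alone. The WT count depends on the method and on 1 library: DESeq2 on all libraries, and limma without W5S5277, each called 6 of 8 members lower, where they called 23.3% and 29% of all genes in either direction. No member was called between KO and WT muscle at either age. In the WT ageing comparison 1 of 8 members was called, beside 18.6% of all genes tested (7.68% called lower), and in the KO ageing comparison 1 of 8, beside 5.57% of all genes (1.96% lower). For the interaction of genotype and age it was 0 of 8, beside 0% of all genes. Between KO and WT the count was 0 of 8 at 5 months, beside 0% of all genes, and 0 of 8 at 20 months, beside 0.0302%. At an unadjusted p under 0.05 the members numbered 2 (Chrnd and Chrne) and 1 (Chrnd) of 8 in these 2 comparisons, where 4.1% and 13.8% of all genes did so. By edgeR and by DESeq2 on the recovered reads the count of members between genotypes was also 0 at each age.

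**Figure D1:**
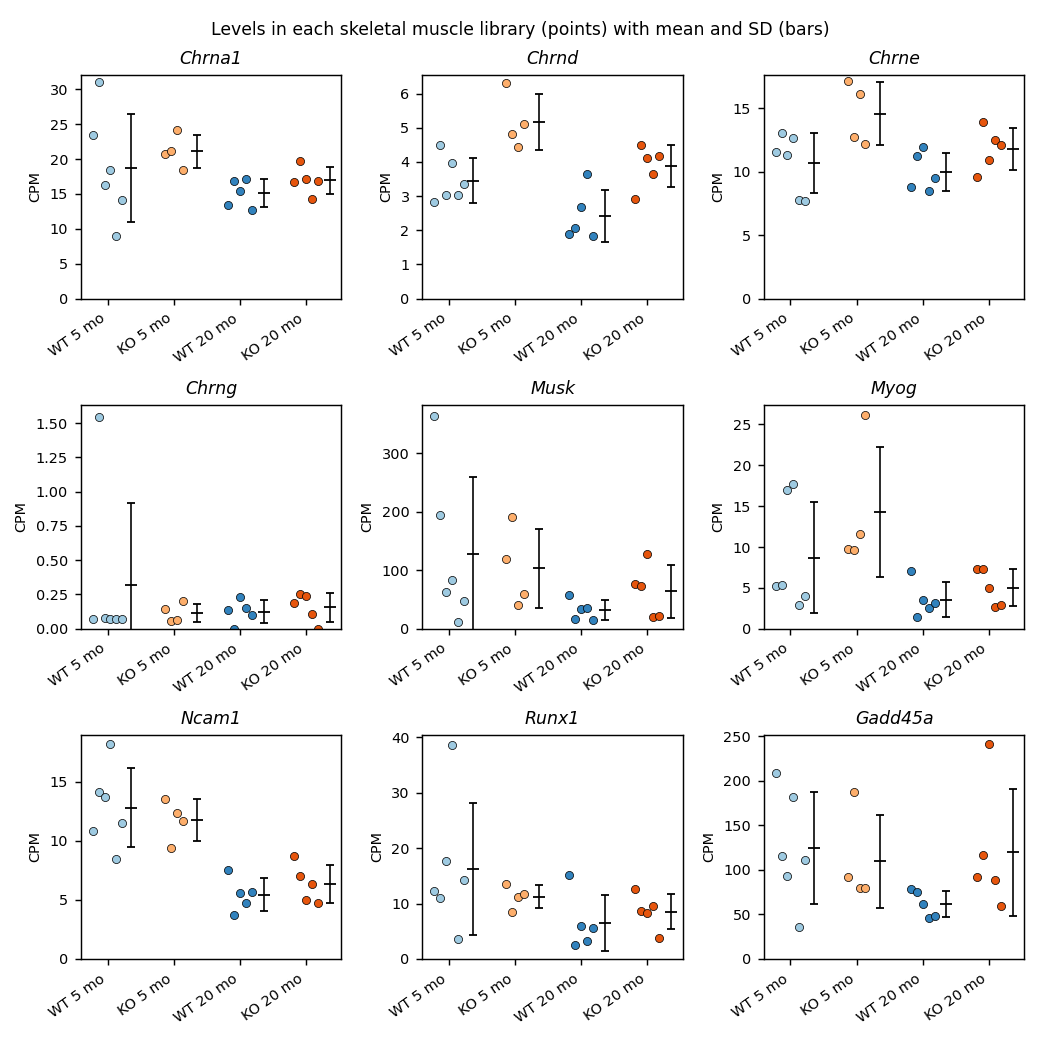
Levels of the 9 genes in each skeletal muscle library, in CPM on linear axes that start at 0, with 1 panel per gene. Points are libraries, and bars beside them give the mean and SD of WT at 5 months (n = 6), KO at 5 months (n = 4), WT at 20 months (n = 5) and KO at 20 months (n = 5); an SD bar that would pass below 0 is clipped. Ncam1 is lower in every 20-month library than in every 5-month library of the same genotype, while Musk spreads from 11.3 to 365 CPM and Chrng is near 0 in all libraries but W5S5007.

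The receptor subunits come first. Chrna1 encodes the alpha subunit, which carries the main part of the acetylcholine binding sites (gene ID 11435, chr2:73563215-73580338, minus strand, GRCm38). In WT muscle at 5 months Chrna1 ranged from 8.98 CPM through a median of 17.4 to 31.0 CPM in 6 libraries. KO libraries of that age read 20.7, 21.1, 24.2 and 18.4 CPM. The 20-month WT libraries read 13.4, 16.8, 15.4, 17.2 and 12.6 CPM and KO libraries 16.7, 19.7, 17.1, 14.3 and 16.9 CPM. The young WT group thus enclosed every other group, with W5S5277 lowest and W5S5007 highest. The log2 fold change of KO over WT was 0.25 (95% interval -0.20 to 0.70) at 5 months and 0.16 (-0.28 to 0.60) at 20 months. With age Chrna1 differed by -0.21 (-0.63 to 0.21) in WT muscle and, in KO muscle, by -0.30 (-0.77 to 0.17), each within the spread between libraries.

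Chrnd encodes the delta subunit (gene ID 11447, chr1:87190607-87200070, plus strand). The mean of Chrnd was higher in KO than in WT muscle at each age, but the difference did not pass the test over all genes. At 5 months WT libraries ranged from 2.83 through a median of 3.19 to 4.5 CPM, and KO libraries read 6.32, 4.83, 4.44 and 5.12 CPM. Among older mice, WT libraries read 1.89, 2.06, 2.67, 3.65 and 1.83 CPM and KO libraries 2.92, 4.5, 4.12, 3.66 and 4.19 CPM. Thus 3 of 4 young KO libraries and 4 of 5 old KO libraries lay above every WT library of their age. The log2 fold change of KO over WT was 0.47 ± 0.15 (SE; limma adjusted p = 0.881) at 5 months and 0.53 ± 0.15 (adjusted p = 0.295) at 20 months. Over 29 alternatives it stayed between 0.39 and 0.58 at 5 months, never with an adjusted p under 0.594, and at 20 months between 0.47 and 0.70 with adjusted p from 0.0933 to 0.624. With age Chrnd differed by -0.40 (adjusted p = 0.0616) in WT and by -0.34 (adjusted p = 0.189) in KO muscle. These levels rest on 28 to 89 reads per library.

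Chrne encodes the epsilon subunit, which replaces gamma in the adult receptor (gene ID 11448, chr11:70614883-70619216, minus strand). It overlaps the coding gene 4930544D05Rik on the plus strand, and the libraries were strand-specific per the labels' protocols, while the use of strand in counting was not given in the sources used here. WT libraries at 5 months ranged from 7.71 through a median of 11.5 to 13.1 CPM, and KO libraries read 17.2, 12.7, 16.2 and 12.2 CPM. At 20 months WT libraries read 8.79, 11.2, 12.0, 8.50 and 9.54 CPM and KO libraries 9.62, 14.0, 10.9, 12.5 and 12.1 CPM. The 2 highest values of all 20 libraries were KO at 5 months, and the groups overlapped at both ages. KO over WT was 0.43 ± 0.16 (SE; limma adjusted p = 0.9999) at 5 months and 0.22 ± 0.15 (adjusted p = 0.502) at 20 months. Chrne showed the smallest spread of the members, with 2.23-fold between the lowest and the highest library.

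Chrng encodes the gamma subunit of fetal and denervated muscle (gene ID 11449, chr1:87204657-87212694, plus strand), beside Chrnd on the chromosome. It was close to the limit of detection: 18 of 20 libraries held 1 to 25 reads and the other two, W18S42 and K18S64, held 0, which allows up to 0.182 and 0.161 CPM (3 reads, counting error only). Outside W5S5007 no library held more than 4 reads or 0.254 CPM. W5S5007, a WT library at 5 months, held 25 reads or 1.54 CPM. Without the filter, the log2 fold change between any 2 groups lay between -0.15 and 0.05, with adjusted p from 0.665 to 1. Scaled to the exon length of each gene, the epsilon subunit stood at 6.33 ± 1.40 CPM per kb and gamma at 0.0762 ± 0.144 CPM per kb in WT muscle at 5 months (SD, n = 6). In the old WT group the pair stood at 5.92 ± 0.898 and 0.0297 ± 0.0202 CPM per kb (n = 5). The adult subunit was thus far above the fetal one in every library of every group. W5S5007 also had the highest sum of 4 markers of regenerating or immature fibres (Myh3, Myh8, Mymk, Mymx), 69.6 CPM against 2.73 to 23.8 CPM in the other libraries, and one of the high slow-fibre sums; their part in its Chrng value was not tested.

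Promoters of the subunits are shown because the adult and fetal genes were read at such different levels, and Myog because myogenin binds E-boxes in front of subunit genes. Each line gives bases -200 to -51 before the RefSeq start site, read from GRCm38.p6 in the direction of the gene, with E-boxes (CANNTG, the same on both strands) and N-boxes (CCGGAA, or TTCCGG on the other strand) in capitals. The N-box is known as a site for Ets factors such as GABP in genes read by the nuclei under the nerve ending. The stretches are chr2:73580389-73580538 (minus strand) for Chrna1, chr11:70619245-70619394 (minus) for Chrne, chr1:87205611-87205760 (plus) for Chrng and chr1:134289804-134289953 (plus) for Myog. The RefSeq start of Chrng (chr1:87205811) lies within the GENCODE span of the gene given above, and so does its stretch. None of the stretches shown overlaps a GENCODE exon.
Chrna1: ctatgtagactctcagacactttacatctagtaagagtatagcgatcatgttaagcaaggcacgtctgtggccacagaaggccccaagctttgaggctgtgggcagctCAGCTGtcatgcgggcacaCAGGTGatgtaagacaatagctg
Chrne: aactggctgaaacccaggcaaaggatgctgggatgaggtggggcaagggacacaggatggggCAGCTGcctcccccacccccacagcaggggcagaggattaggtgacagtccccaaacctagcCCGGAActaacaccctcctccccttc
Chrng: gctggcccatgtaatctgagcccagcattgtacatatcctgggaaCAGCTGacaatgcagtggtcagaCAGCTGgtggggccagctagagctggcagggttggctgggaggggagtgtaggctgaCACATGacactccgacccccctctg
Myog: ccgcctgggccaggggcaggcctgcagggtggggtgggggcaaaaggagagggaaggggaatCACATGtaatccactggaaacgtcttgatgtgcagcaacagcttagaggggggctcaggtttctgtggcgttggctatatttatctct
In the stretch shown, Chrna1 held the E-boxes CAGCTG at -92 and CAGGTG at -73 (first base of the match, counted from the start site). Chrne held CAGCTG at -138 and the N-box CCGGAA at -76, and Chrng held CAGCTG at -155 and -132 and CACATG at -75. Myog held CACATG at -138. RefSeq windows of 250 bases before the start were found for 7 members, Runx1 with 2 windows. Those of Chrne, Chrng, Musk, Myog, Gadd45a and 1 of Runx1 overlapped GENCODE exons of their own gene. Of these 8 windows 7 held CANNTG, where 66.2% of all 32841 such windows did so. The E-box CAGCTG, a subset of CANNTG, was in 4 of 8 windows (Chrna1, Chrne, Chrng and Musk) against 13% of all windows. CCGGAA was in 3 of 8 (Chrne, Gadd45a and 1 of Runx1) against 12%, and CACGTG, the E-box form that Myc with Max binds and also a subset of CANNTG, in 1 of 8 (Runx1, at -71) against 6.02%. These matches describe letters, and no binding was measured.

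Musk encodes the receptor kinase that organises the junction (gene ID 18198, chr4:58285960-58374303, plus strand). Its level varied more between single libraries than between groups, 32.4-fold from the lowest to the highest of 20. WT libraries at 5 months read 365 CPM in W5S5004, 194 in W5S5007, 63.5 in W5S5041, 82.8 in W5S5042, 11.3 in W5S5277 and 47.2 in W5S5299. KO libraries at 5 months read 120, 192, 40.8 and 59.9 CPM. The 20-month WT libraries read 58.5, 17.2, 33.4, 34.9 and 15.1 CPM and KO libraries 76.9, 72.6, 129, 20.6 and 21.96 CPM. Both the highest and the lowest value of the whole set lay in the young WT group. With age the log2 fold change was -1.42 (95% interval -2.85 to 0.01; limma adjusted p = 0.146) in WT and -0.76 (-2.35 to 0.82; adjusted p = 0.547) in KO muscle. KO over WT was 0.17 (-1.36 to 1.69) at 5 months, with the sign turned by edgeR and DESeq2 and without K5S4285 or W5S5277, and 0.82 (-0.67 to 2.31) at 20 months. The 3 highest Musk values, in W5S5004, W5S5007 and K5S4285, were those of the 3 libraries with high slow-fibre sums. Without these 3 libraries the log2 fold change of Musk with age was -0.53 in WT muscle (limma adjusted p = 0.589). In KO muscle it was -0.38 (limma adjusted p = 0.750), and each was smaller than over all libraries. All 3 are 5-month libraries, so leaving out the highest Musk values lowers the young means whatever their fibre makeup. The part of slow fibres in the Musk values was not tested.

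Other components of the junction were taken from a list of 38 genes for the receptor, the agrin and MuSK pathway, the synaptic matrix and the transcription of synaptic genes, of which 36 were tested. This list and those below were chosen with earlier results of these data known, so their counts are a description. Chrnb1, the beta subunit, averaged 49.3 ± 4.57 CPM (SD, n = 6) in young WT and 42.3 ± 5.56 CPM (n = 5) in old WT muscle, and 47.8 ± 8.26 (n = 4) and 46.8 ± 6.80 CPM (n = 5) in KO muscle. Rapsn, which anchors receptors, averaged 19.4 ± 2.25 CPM in young and 26.5 ± 5.25 CPM in old WT muscle, a log2 fold change of 0.42 (limma adjusted p = 0.0664). In KO muscle Rapsn differed with age by -0.18 (adjusted p = 0.536). Dok7, Lrp4 and Agrn differed by -0.43, 0.18 and 0.08 with age in WT and by -0.98, -0.02 and 0.03 in KO muscle, none called. Dok7 varied widely, from 15.0 to 89.4 CPM over the young KO libraries alone. The genes of this list called in WT ageing numbered 8 of 36, beside 18.6% of all genes, and were 5 up and 3 down. Bche, a cholinesterase, rose by 0.94, Gabpa, an Ets factor of the N-box, by 0.48, and the adaptors Crkl and Crk, which act below Dok7, by 0.46 and 0.42, while Dnaja3 rose by 0.31. Dag1 (dystroglycan), Col13a1 and Lamb2, a laminin chain of the synaptic matrix, fell by 0.57, 0.53 and 0.46. In KO ageing 2 of 36 were called, beside 5.57% of all genes: Bche (0.91) and Utrn (0.55), the utrophin of the postsynaptic membrane. The median log2 fold change of the list was -0.01 in WT and 0.01 in KO ageing, where that of all genes was 0.03 and -0.02. Between KO and WT 0 of 36 were called at each age by limma. At an unadjusted p under 0.05 the counts were 1 at 5 and 2 at 20 months, beside 4.1% and 13.8% of all genes.

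**Figure D2:**
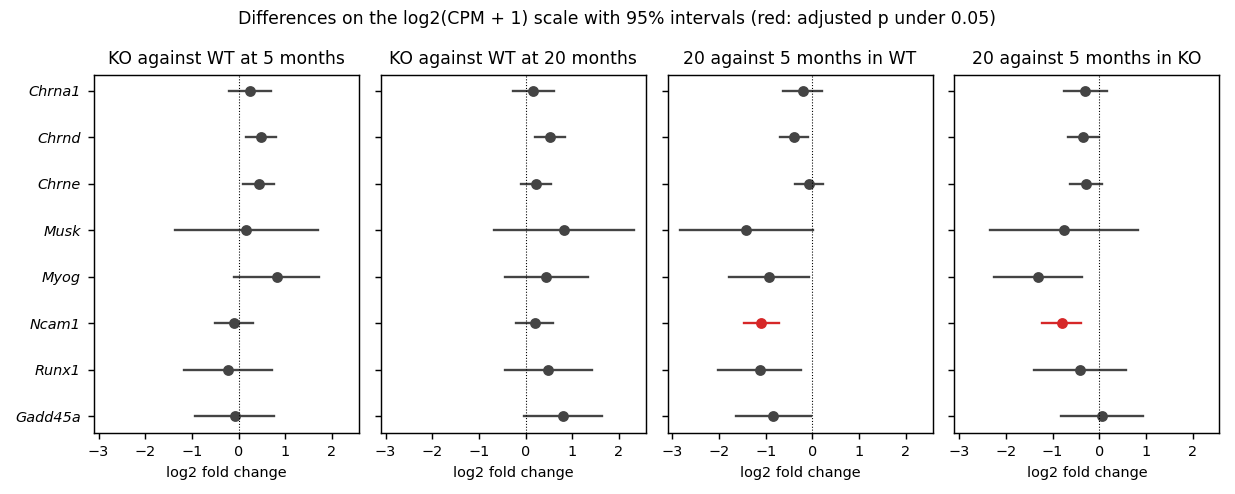
Log2 fold changes of 8 members on the log2(CPM + 1) scale (points) with 95% intervals from limma (lines), in 4 comparisons of skeletal muscle groups of 4 to 6 libraries. Red marks an adjusted p under 0.05 over all 13237 genes, which holds for Ncam1 with age in WT (-1.09) and KO muscle (-0.81). The KO call was kept in 20 of 29 alternatives. The intervals of Musk are the widest.

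Myogenin, Runx1 and Gadd45a are the members that act in the nucleus. Myog encodes the basic helix-loop-helix factor that drives the denervation programme (gene ID 17928, chr1:134289989-134292548, plus strand). WT libraries at 5 months ranged from 2.97 through a median of 5.28 to 17.8 CPM, and KO libraries read 9.81, 9.66, 11.6 and 26.2 CPM. Among older mice, WT libraries read 7.10, 1.46, 3.48, 2.55 and 3.10 CPM and KO libraries 7.26, 7.36, 5.02, 2.67 and 2.90 CPM. In KO muscle every old library lay below every young one, as 15.8% of all genes did in one direction or the other (6.87% in this one), and in WT muscle the ages overlapped, with 2 of 5 old libraries below all young ones. The log2 fold change with age was -1.31 ± 0.45 (SE; limma adjusted p = 0.0878) in KO and -0.93 ± 0.41 (adjusted p = 0.109) in WT muscle. The fall of Myog in KO ageing was called by DESeq2 (adjusted p = 0.0477, with 10.8% of all genes called) and with the KO groups fitted alone (limma adjusted p = 0.0303), and in none of the other 27 alternatives. The highest young values (17.0 and 17.8 CPM in W5S5041 and W5S5042, 26.2 CPM in K5S5118) were all in libraries with Xist, a kind absent at 20 months. The same libraries also had the highest sums of the immediate early genes listed below, 2510, 3366 and 1963 CPM. The next highest sum was 1827 CPM, in W18S41. The part of those genes in the Myog values was not tested. With Xist as a covariate the log2 fold change with age was -0.63 (adjusted p = 0.350) in KO and -0.48 (0.310) in WT muscle, and over libraries with Y-chromosome transcripts alone -0.92 (0.178) and -0.33 (0.510). KO over WT was 0.82 ± 0.44 (adjusted p = 0.9999) at 5 months and 0.44 ± 0.43 (adjusted p = 0.638) at 20 months.

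Runx1 encodes a transcription factor that rises in denervated fibres and is also read in blood and connective tissue cells (gene ID 12394, chr16:92601466-92826149, minus strand, overlapped by the antisense RNA Gm26626). WT libraries at 5 months ranged from 3.52 in W5S5277 through a median of 13.2 to 38.6 CPM in W5S5042, and KO libraries read 13.5, 8.42, 11.2 and 11.7 CPM. At 20 months WT libraries read 15.2, 2.54, 6.04, 3.25 and 5.53 CPM and KO libraries 12.5, 8.69, 8.24, 9.60 and 3.70 CPM. The ages overlapped in both genotypes, with W18S41 above the other old WT libraries. The log2 fold change with age was -1.13 ± 0.43 (SE; limma adjusted p = 0.0669) in WT and -0.42 ± 0.47 (adjusted p = 0.605) in KO muscle. KO over WT was -0.23 at 5 months and 0.49 at 20 months, with intervals of -1.18 to 0.72 and -0.44 to 1.42.

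Gadd45a encodes a stress-response protein that rises in denervated and wasting muscle (gene ID 13197, chr6:67035096-67037457, minus strand, overlapped by the transcript E230016M11Rik). WT libraries at 5 months ranged from 35.6 in W5S5277 through a median of 113 to 209 CPM, and KO libraries read 92.0, 187, 79.4 and 80.2 CPM. The 20-month WT libraries read 78.5, 75.1, 61.5, 46.4 and 48.1 CPM and KO libraries 92.3, 117, 241, 89.1 and 58.9 CPM. The ages overlapped in both genotypes. The log2 fold change with age was -0.83 ± 0.38 (SE; limma adjusted p = 0.125) in WT and 0.06 ± 0.42 (adjusted p = 0.948) in KO muscle. KO over WT was -0.08 ± 0.41 (adjusted p = 0.9999) at 5 months and 0.81 ± 0.40 (adjusted p = 0.376) at 20 months. The difference between these genotype effects, the interaction, was 0.89 with an interval of -0.30 to 2.08 (adjusted p = 0.999). Per kb of exon Gadd45a had the highest mean level of the 9 members in each group, 35.1 to 70.6 CPM per kb, followed by Musk with 8.42 to 33.7 CPM per kb, and their ranges over libraries overlapped in each group but old WT muscle.

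Ncam1 encodes the neural cell adhesion molecule, which covers embryonic and denervated fibres and in normal adult muscle lies at the junction, on satellite cells and on Schwann cells (gene ID 17967, chr9:49502136-49798925, minus strand, overlapped by the antisense RNA Gm11149). WT libraries at 5 months read 10.8, 14.2, 13.7, 18.3, 8.49 and 11.5 CPM and at 20 months 7.51, 3.70, 5.57, 4.75 and 5.68 CPM. KO libraries read 13.6, 9.38, 12.4 and 11.7 CPM at 5 months and 8.69, 7.04, 5.02, 6.38 and 4.72 CPM at 20 months. Each old library lay below each young library of its genotype. Groups that did not overlap were found for 1 of 8 members in WT ageing, beside 5.27% of all genes (1.95% lower with age), and for 2 of 8 (Ncam1 and Myog) in KO ageing, beside 15.8% (6.87% lower). The mean fell from 12.8 ± 3.36 CPM (SD, n = 6) to 5.44 ± 1.40 CPM (n = 5) in WT, a log2 fold change of -1.09 ± 0.18 (SE; limma adjusted p = 0.00153), and this was called in 29 of 29 alternatives. In KO muscle it fell from 11.8 ± 1.76 CPM (n = 4) to 6.37 ± 1.61 CPM (n = 5), a log2 fold change of -0.81 ± 0.20 (adjusted p = 0.0262). The interaction, the difference between these falls, was 0.29 (interval -0.28 to 0.85, adjusted p = 0.999) and was not called. KO over WT was -0.09 (-0.50 to 0.31) at 5 months and 0.19 (-0.20 to 0.59) at 20 months.

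The KO ageing call for Ncam1 was lost in 6 of 20 fits that left out 1 library (K18S62, K18S63, K18S64, K5S4284, K5S5116 or K5S5118), with adjusted p from 0.0520 to 0.0997 and log2 fold changes of -0.81 to -0.72. It was also lost with no filter (adjusted p = 0.0501), with Xist as a covariate (0.110) and over libraries with Y-chromosome transcripts alone (0.0972), where the log2 fold changes were -0.81, -0.65 and -0.77. In WT muscle the libraries with Y-chromosome transcripts alone gave -0.94 (adjusted p = 0.0183). Without the 3 libraries high in slow-fibre genes the fall was -1.10 (adjusted p = 0.0115) in WT and -0.90 (adjusted p = 0.0378) in KO muscle.

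Markers of other cells were set beside Ncam1. The sum of 5 Schwann cell markers (S100b, Sox10, Mbp, Cdh19 and Prx, none at 0 in all libraries), made up mostly of the myelin genes Mbp and Prx, was 33.4 to 109.7 CPM in young and 25.6 to 52.6 CPM in old WT muscle, and 79.3 to 139 against 52.1 to 64.5 CPM in KO muscle. Cdh19, S100b and Sox10, which do not encode myelin proteins, were not called with age in either genotype. Cdh19 averaged 2.19 CPM in young and 2.66 CPM in old WT muscle (3.60 and 3.91 CPM in KO) and S100b 1.54 and 1.40 CPM (2.14 and 2.01 CPM in KO). The mean of Sox10 was lower in old muscle, 1.82 against 3.05 CPM in WT and 3.13 against 4.97 CPM in KO. The sum of 5 fibroblast markers was 528 to 1316 against 439 to 735 CPM in WT and 710 to 1097 against 448 to 925 CPM in KO muscle, while Lum, a member of that list, had a higher mean at 20 months (15.2 and 21.3 CPM in WT, 15.1 and 18.9 CPM in KO). The sum of 6 macrophage markers was 55.6 to 194 against 24.7 to 99.6 CPM in WT and 92.8 to 149 against 48.98 to 105 CPM in KO muscle. The sum of 4 tendon markers was 174 to 434 against 69.9 to 360 CPM in WT and 108 to 447 against 74.8 to 190 CPM in KO muscle. The part of these cells in the fall of Ncam1 was not tested, and in whole tissue fewer cells of a type and less RNA per cell cannot be told apart. The sum of 5 satellite cell markers (Pax7, Myf5, Cdh15, Calcr and Chodl) spanned 30.8 to 40.1 CPM in young and 30.9 to 41.3 CPM in old WT muscle, and 29.2 to 37.1 against 27.4 to 39.9 CPM in KO muscle. Most of that sum was Cdh15, with means of 21.9 to 23.8 CPM in the 4 groups, while Pax7 averaged 1.36 ± 1.17 CPM (SD, n = 6) in young and 3.10 ± 0.918 CPM (n = 5) in old WT muscle and 1.005 ± 0.296 CPM (n = 4) and 2.004 ± 1.003 CPM (n = 5) in KO muscle. Genes of Schwann cells and motor axons were a list of 17, of which 7 passed the filter. In WT ageing 3 of 7 were called, beside 18.6% of all genes: the myelin genes Pmp22 and Prx fell by 0.99 and 0.87, and Ngfr, a neurotrophin receptor of immature and denervated Schwann cells, rose by 0.88. In KO ageing 2 of 7 were called, beside 5.57% of all genes, Pmp22 and Prx, which fell by 1.01 and 0.96. Pmp22 fell from 60.4 ± 20.9 CPM (SD, n = 6) to 28.9 ± 6.02 CPM (n = 5) in WT and from 82.6 ± 8.50 CPM (n = 4) to 40.4 ± 2.39 CPM (n = 5) in KO muscle. Between KO and WT 0 of 7 were called at each age by limma. At 5 months all 7 had a log2 fold change above 0 (median 0.53, all genes 0.01), as 52.86% of all genes had. An unadjusted p under 0.05 by limma was found for 5 of them and for 4.1% of all genes. At 20 months these counts were 6 and 4, beside 45.56% and 13.8% of all genes.

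**Figure D3:**
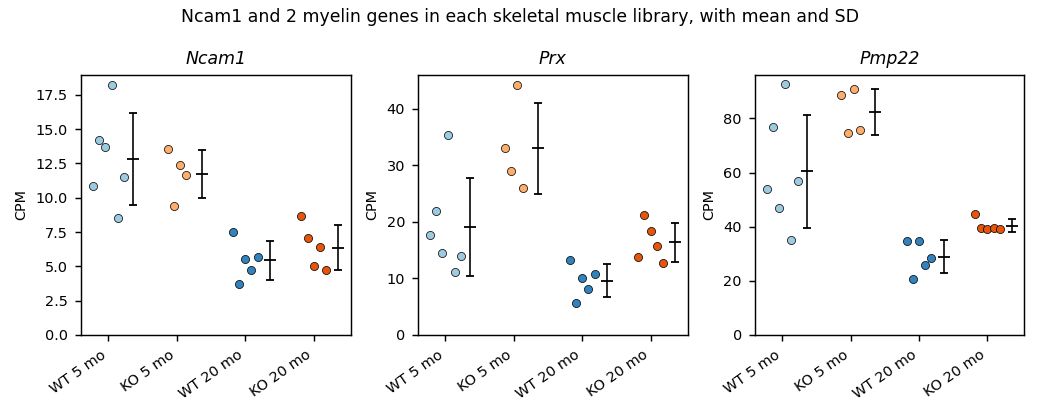
Ncam1 and the myelin genes Prx and Pmp22 in each skeletal muscle library, in CPM on linear axes that start at 0. Points are libraries and bars give the mean and SD of each group (n = 6, 4, 5 and 5 from left to right); Pmp22 stands at 35.2 to 92.6 CPM in young and 20.9 to 34.9 CPM in old WT muscle, and the ages do not overlap within KO muscle in any of the 3 panels.

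Genes that respond to denervation were a list of 32, all tested. In WT ageing 10 of 32 were called, 3 up and 7 down, beside 18.6% of all genes. Dach2, a repressor that links nerve activity to myogenin and is lowered by denervation, rose by 1.52 from 6.34 ± 2.21 CPM (SD, n = 6) to 19.8 ± 5.16 CPM (n = 5). Mef2c, a partner factor of the myogenic regulators, rose by 0.83, and Fbxo21, a ubiquitin ligase subunit, by 0.75. Sik1, a kinase that acts on class II histone deacetylases, fell by 2.63, the largest fall among the called genes of this list. Ampd3, an AMP deaminase raised by denervation, and Gadd45g, a relative of Gadd45a, fell by 2.35 and 1.80, and Actc1, the actin of the heart and of immature fibres, by 2.30. Mstn (myostatin), Myh8, the perinatal myosin, and Emb fell by 1.51, 1.27 and 0.94. In KO ageing 1 of 32 was called, beside 5.57% of all genes. This was Dach2, which rose by 1.48 from 5.41 ± 2.11 CPM (n = 4) to 16.7 ± 4.69 CPM (n = 5). Dach2 was called in 29 of 29 alternatives in WT and in 28 of 29 in KO ageing. Between KO and WT 0 of 32 were called at each age by limma. At an unadjusted p under 0.05 the counts were 0 at 5 and 3 at 20 months, beside 4.1% and 13.8% of all genes. The list's median was -0.50 in WT and -0.36 in KO ageing.

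Lists for responses that vary with feeding, time of day and handling were set beside the members, where 18.6% of all genes were called in WT and 5.57% in KO ageing. These lists were chosen with earlier results of these data known, so their counts are a description and no test of such responses. In WT ageing 11 of 13 genes of fasting and glucocorticoid response were called, all down. Of these Mt2 fell by 3.93, Ddit4 fell by 3.90 and Mt1 fell by 3.53 on the log2 scale, and Sesn1, Foxo1 and Fkbp5 fell by 2.11, 1.70 and 1.47. In KO ageing 0 of 13 were called by limma, with 4 at an unadjusted p under 0.05, as were 3386 of all 13237 genes. Of 9 immediate early genes 3 were called in WT ageing, all down (Junb, Ier2 and Egr2), and 0 in KO ageing. Of 12 clock genes 2 were called in WT ageing, Nr1d2 (0.70) and Clock (0.55), and 0 in KO ageing, so the clock count in WT was near the share of all genes. Across the 6 lists, the members among them counted apart, 37 of 109 genes were called in WT and 5 in KO ageing. The WT count ranged from 16 to 52 when 1 library was left out, the KO count from 2 to 16. W5S5277, the young WT library lowest in Musk, Gadd45a, Chrna1 and Runx1, also read 29.4 CPM for Ddit4 and 8.42 CPM for Mt2, where the other young WT libraries read 76.8 to 962 and 119 to 1179 CPM. The part of these responses in the members' values was not tested, and the times of day and feeding at sampling were not given in the sources used here.

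Calls of the members in WT ageing turned on W5S5277. Without it, 6 of 8 members were called lower in WT ageing (limma), with 29% of all genes called: Ncam1, Runx1 (-1.46, adjusted p = 0.00734), Gadd45a (-1.15, adjusted p = 0.0123), Musk (-1.95, adjusted p = 0.0198), Myog (-1.14, adjusted p = 0.0420) and Chrnd (-0.42, adjusted p = 0.0459). DESeq2 on the recovered reads of all libraries called the same 6, with 23.3% of all genes called. Without W18S41, 3 were called (Ncam1, Runx1 and Myog), and without W18S66, 2 (Ncam1 and Chrnd). Over all libraries the 8 members had log2 fold changes below 0 in WT ageing, as 6087 of all 13237 genes did (median -0.88, all genes 0.03). In KO ageing 7 of 8 lay below 0, as 6950 of all genes did (median -0.38, all genes -0.02). At 20 months all 8 were above 0 in KO over WT, as 45.56% of all genes were (median 0.46, all genes -0.03). At 5 months 5 of 8 were above 0, as 52.86% of all genes were (median 0.21, all genes 0.01). Several members vary together between libraries, as given below, so these counts do not rest on 8 separate observations. None of the 8 was called between genotypes. KO and WT ageing compare groups that share no library, but 1 fit over all 4 groups gives them the same estimate of the spread per gene. Their p-values are thus not separate, and each also shares its groups with the comparisons of genotype.

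Within groups the members fell into sets that varied together from library to library. With group means taken out of log2(CPM + 1), Pearson's r over the 20 libraries was computed for 45 pairs of the 9 members and Myc, as a description. Musk and Gadd45a had r = 0.80 (Spearman's rho 0.74). It was 0.65 without W5S5004 and W5S5277, the 2 libraries where Musk lay farthest from its group mean. Libraries were left out by 1 gene of each pair, and the other gene played no part in that choice. Chrna1 had r = 0.69 with Musk and 0.65 with Chrne, which fell to 0.47 and 0.49 without W5S5007 and W5S5277. A second set held Ncam1, Runx1 and Myog, with r = 0.89 for Ncam1 and Runx1, 0.76 for Myog and Runx1 and 0.72 for Myog and Ncam1. Leaving out the 2 libraries where Ncam1 (first pair) or Myog (other pairs) lay farthest from its group mean gave 0.83, 0.71 and 0.68. Myc had r = 0.85 with Myog, 0.81 with Runx1 and 0.69 with Ncam1, and 0.17 with Chrna1. Without the 2 libraries where that member, not Myc, lay farthest from its group mean, these were 0.82, 0.61, 0.48 and -0.07. The highest r of Chrnd was 0.44, with Chrng, which is near the limit of detection outside W5S5007. It was 0.235 without W5S5007 and W18S66, where Chrnd lay farthest from its group mean. Points of one library share its scaling and its tissue makeup.

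**Figure D4:**
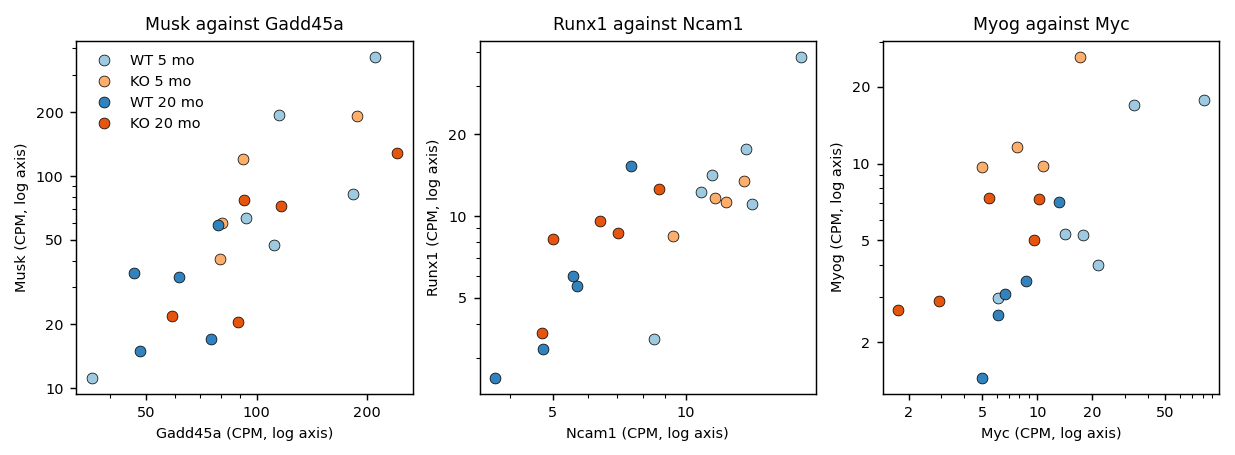
Musk against Gadd45a, Runx1 against Ncam1 and Myog against Myc in the 20 skeletal muscle libraries, in CPM on log axes, coloured by group. In the first panel the lowest point is W5S5277 (11.3 CPM of Musk, 35.6 CPM of Gadd45a); in the second the old WT and KO libraries lie to the left of the young ones of their genotype.

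**Figure D5:**
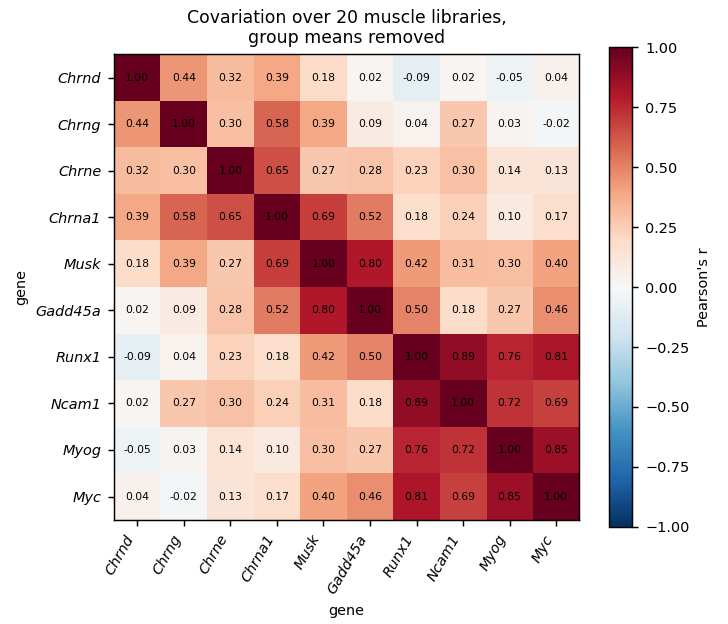
Pearson's r between the 9 members and Myc over 20 skeletal muscle libraries, on log2(CPM + 1) with group means removed. Colour and printed values give r from -1 to 1; Runx1, Ncam1, Myog and Myc form a block with r of 0.69 to 0.89 (0.48 to 0.83 with 2 libraries left out of each pair), and Musk and Gadd45a a pair with 0.80.

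The genes most like each member on the same measure were sought among the 9772 genes that averaged 5 CPM or more. For Musk they were Serinc3 (r = 0.93), Slc39a14 (0.92) and Mstn (0.92), and for Gadd45a they were Tut1 (0.93), Hmox1 (0.91) and Zwint (0.89). Chrna1 was most like Gpt2 (0.88), Map1lc3a (0.85) and Sav1 (0.84), and Chrne was most like Htra2 (0.85), C030006K11Rik (0.83) and S100a13 (0.82). Ncam1 was most like Ccn2 (0.89), Mgp (0.87) and Cd9 (0.87), genes read widely in connective tissue, and Runx1 was most like Sox9 (0.91), Midn (0.90) and Tubb6 (0.90). Myog was most like Slc66a2 (0.92), Arid5b (0.92) and Fam168b (0.92). Chrnd had no gene as close, with Ilvbl (0.71), Slc25a29 (0.69) and Plin5 (0.64) at the top.

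Liver and omental fat, with 22 libraries each, showed how far the members belong to muscle. Chrng had no read in any of these 44 libraries, and Myog and Chrnd were at 0 in all but 1 or 2 of them. Chrna1 and Chrne reached at most 0.453 and 0.287 CPM in fat and 0.167 and 0.103 CPM in liver. Musk reached 3.19 CPM in fat and 0.195 CPM in liver, below its lowest muscle library at 11.3 CPM. The other three were read in fat as well, with group means of 0.879 to 14.9 CPM for Ncam1, 9.62 to 24.6 CPM for Gadd45a and 9.75 to 20.0 CPM for Runx1. In liver Ncam1 was at most 0.616 CPM, Runx1 at most 1.98 CPM and Gadd45a at most 11.2 CPM. W18S42, the muscle library with hepatocyte RNA, had the lowest Ncam1, Myog and Runx1 of all 20 muscle libraries; the part of that RNA in its values was not tested. Ncam1 was called in WT ageing without it too.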

How the data were processed

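Messenger RNA of 64 libraries was sequenced, 20 of them from skeletal muscle. The authors deposited 1 table of read signal per gene ID, made with CLC Genomics and called CPM per the file headers. Its columns sum to 0.529 to 1.64 M, so the deposited signal is scaled by a factor per library. The submitters' processing notes name the builds GRCm38.p6 and mm10. The aligner, annotation and use of strand in counting were not given in the sources used here. Divided by the worth of 1 read, 100% of values came out whole (within 0.01), so reads were recovered for the alternatives with edgeR and DESeq2; 0 columns were left out. Depth was 15.4 to 22.4 M reads per muscle library. No label says that the libraries came from separate mice, so p-values measure the spread between libraries, which may be technical; pairs of libraries differed by a chi-square of at least 14.5 per degree of freedom, so each counts as 1.

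Genes above 1 CPM in at least 4 muscle libraries entered limma 3.58.1 in R 4.3.3 on the log2(CPM + 1) scale, with an intensity trend and 1 mean per group over 20 libraries. Alternatives used edgeR 4.0.16, DESeq2 1.42.0, a pseudocount of 0.1, no filter, columns rescaled to 1 M (M, mega), the compared groups alone, an Xist covariate, libraries with Y-chromosome transcripts alone, and each library left out. The libraries high in slow-fibre genes were left out as an alternative chosen after seeing the data. The limma and edgeR fits, not DESeq2, were run on simulated counts with known changes in old KO muscle. Those counts held no outlying libraries, so they say nothing on calls that turn on 1 library. Gene positions are GENCODE models on GRCm38, symbols and promoters RefSeq GRCm38.p6. All members are named. Of the lists, the called genes are named, up to 6 in each direction per list and comparison, but 7 for the denervation genes that fell in WT ageing. Chrnb1, Rapsn, Dok7, Lrp4 and Agrn, Myc, and the 3 genes most like each member are named too. Some single markers of cell types are named as well. Some listed genes are not reported here and were left out of the list counts and sums. The members and lists were chosen with earlier results of these data known.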

Additional observations from a re-analysis of the deposited data

Results flagged for a closer look

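Each of 36 groups (9 genes in 4 groups of libraries) was searched for a library that stood apart from the others by Dixon's test, and 4 were found. Chance flags about 1 in 20 groups if values are normally distributed. The test used CPM without logs, and each flagged value was the highest of its group. The Chrng level of W5S5007, 1.54 CPM (25 reads), stood above the other young WT libraries at 0.0686 to 0.0821 CPM. Those libraries held 1 read each, so their range reflects only the scaling of each library. The Myog level of K5S5118, 26.2 CPM, stood above the other young KO libraries at 9.66 to 11.6 CPM. The Gadd45a level of K5S4285, 187 CPM, stood above the other young KO libraries at 79.4 to 92.0 CPM. The Runx1 level of W18S41, 15.2 CPM, stood above the other old WT libraries at 2.54 to 6.04 CPM.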

How the results depend on the processing

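Of 1152 comparisons of a member's value with an alternative (per member, comparison and setting), 1098 kept their direction and side of the threshold, 15 passed the threshold anew, 9 lost it and 30 turned their sign. The members called in WT ageing (1) became 6 by DESeq2 and 1 to 6 with a library left out. Those in KO ageing (1) became 0 with no filter, with the Xist covariate and with Y-chromosome libraries alone, 2 by DESeq2 and with the groups fitted alone, and 0 to 1 with a library left out. Of 109 list genes, 37 were called in WT ageing, against 22 with no filter, 17 with the groups alone, 24 with the Xist covariate, 9 with Y-chromosome libraries alone, 12 without the libraries high in slow-fibre genes, and 16 to 52 with a library left out (17 without W18S42, 22 without W18S45, 16 without W18S66, 23 without W18S72, 19 without W5S5007 and 20 without W5S5042). In KO ageing 5 became 2 with no filter, with the Xist covariate and with Y-chromosome libraries alone, 13 by DESeq2, 10 with rescaling, 18 with the groups alone, and 2 to 16 with a library left out (2 without K18S64, W18S45 or any 1 of the 4 young KO libraries, 3 without K18S61 or K18S63, and 16 without W5S5277). At 20 months DESeq2 called 1 list gene between genotypes, where limma called 0.

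No value that turned its sign had been called. For KO over WT at 5 months, Musk was -0.33 by edgeR and by DESeq2 and -0.37 to 0.61 with a library left out (-0.37 and -0.21 without W5S5277 and K5S4285); Y-chromosome libraries alone gave Ncam1 0.025, Gadd45a 0.40 and Runx1 0.19. With a library left out, Ncam1 ranged from -0.19 to 0.0098, Runx1 from -0.56 to 0.064 and Gadd45a from -0.40 to 0.10. With age in WT muscle, Chrna1 was 0.090 and Chrne 0.033 without the libraries high in slow-fibre genes, and Chrne 0.016 with Y-chromosome libraries alone. With age in KO muscle, Gadd45a was -0.30 with Y-chromosome libraries alone and -0.24 to 0.34 with a library left out (below 0 without K18S62, K5S5116 or K5S5118), and Runx1 was 0.0057 with the Xist covariate. For the interaction, Chrna1 was 0.048 by edgeR, 0.052 by DESeq2 and -0.25 to 0.086 with a library left out; with Y-chromosome libraries alone Chrnd was -0.047 and Musk -0.10; and Chrnd was -0.0092 to 0.17 with a library left out. The cause was not tested, other than fewer libraries where some were left out.

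Rescaling to 1 M moved the median log2 fold change of all genes from -0.02 to 0.10 in KO ageing and from 0.03 to 0.10 in WT ageing; Ncam1 stayed called, at -0.67 and -1.01. The genes called up and down went from 477 and 260 to 1056 and 161 in KO ageing and from 1446 and 1017 to 1783 and 795 in WT ageing, where DESeq2 gave 1433 and 1647. Over all genes, the count called in KO ageing (737) ranged from 182 (Xist covariate) to 1746 (groups alone), or 131 to 1305 with a library left out, and that in WT ageing (2463) from 937 (Y-chromosome libraries alone) to 3080 (DESeq2), or 1182 to 3842. No paired analysis was possible because the muscle groups compared share no replicate numbers. Reads of Chrng (0 to 25) and Chrnd (28 to 89 per library) limit what could be detected for them.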
